A study of Mus musculus with 4 samples.

Results

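The 8 genes described here encode the cone forms of the proteins that carry the light signal in photoreceptors. The choice was made by name for this function, with earlier results of these data known. They were 8 of the 48897 genes listed in the deposited table, and all 8 passed the filter on low counts. The libraries were made from retinas of mice at postnatal day 9, with the strain given as C57BL/6 in the labels and as C57BL/6J in the study's methods, and the genotype as wide type. On postnatal day 3, the left eye received 0.6 nmol of a miR-124-3p antagomir in 1 μl, injected into the vitreous (anti-miR-124 group, 2 libraries), and the right eye received the same amount of a scrambled sequence (NC group, 2 libraries). The antagomir is an antisense oligonucleotide that blocks the mature microRNA. All retinas were therefore injected, retinas from several mice and litters were mixed in each group, and the eye side cannot be told apart from the treatment. The study's methods give the mixed retinas per group, without saying how the retinas were divided between libraries. They mention 1 biological replicate where the samples are described and 2 biological replicates where expression is compared. The p-values measure the spread between these libraries, and how much of it is technical cannot be told from 2 per group. A left-eye and a right-eye library share a number in the deposited table, which gives pair A (libraries NC-A and anti-A) and pair B (NC-B and anti-B).

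In cones, light activates an opsin, which switches on the G protein transducin. Transducin relieves the inhibition of a phosphodiesterase that breaks down cGMP, and the fall in cGMP closes a cation channel in the outer segment membrane. Arrestin then binds the phosphorylated opsin and ends its signaling. Rods use a parallel set of proteins from other genes, and the mouse retina holds far more rods than cones, so that cone transcripts are a minor part of a whole retina library.

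Between 16317239 and 18726963 reads were counted on genes per library. NC-A held lens transcripts, which made up 6.54% of its TPM (a share of the library after division by gene length), against 0.0132% to 0.0186% in the other libraries. Library anti-B stood apart by its microglia genes, whose summed level was 358 CPM (counts scaled to library size) against 130 to 167 CPM in the others. Rod genes were abundant and no rod, cone, bipolar, microglia or Müller glia marker was at 0 in any library.

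The lead result is a lower level of most cone genes in the anti-miR-124 group. With CPM scaled by edgeR's TMM factors, both anti-miR-124 libraries lay below both NC libraries for 7 of the 8 genes, while this was so for 16.8% of all 17766 genes tested. The exception was Gnb3. Their median log2 fold change (anti-miR-124 over NC, edgeR) was -0.34, against 0.0007 over all genes tested, and the 3 lowest values were those of Gnat2, Pde6c and Arr3, between -0.80 and -0.61. With 2 libraries per group, no cone gene passed an adjusted p of 0.05 (each had an adjusted p of 0.989 in edgeR's quasi-likelihood test, adjusted by Benjamini-Hochberg over all genes tested), and no other gene did (0% of 17766). DESeq2 called 34 of 31982 genes, Gnat2 among them. At an unadjusted p-value under 0.05 from edgeR there were 4 lower cone genes and 0 higher ones, against 1.68% lower and 2.23% higher of all genes tested. This count of 4 changed with the normalization, filter and test, as given below. In bulk retina, fewer cones and less RNA per cone cannot be told apart.

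**Figure D1:**
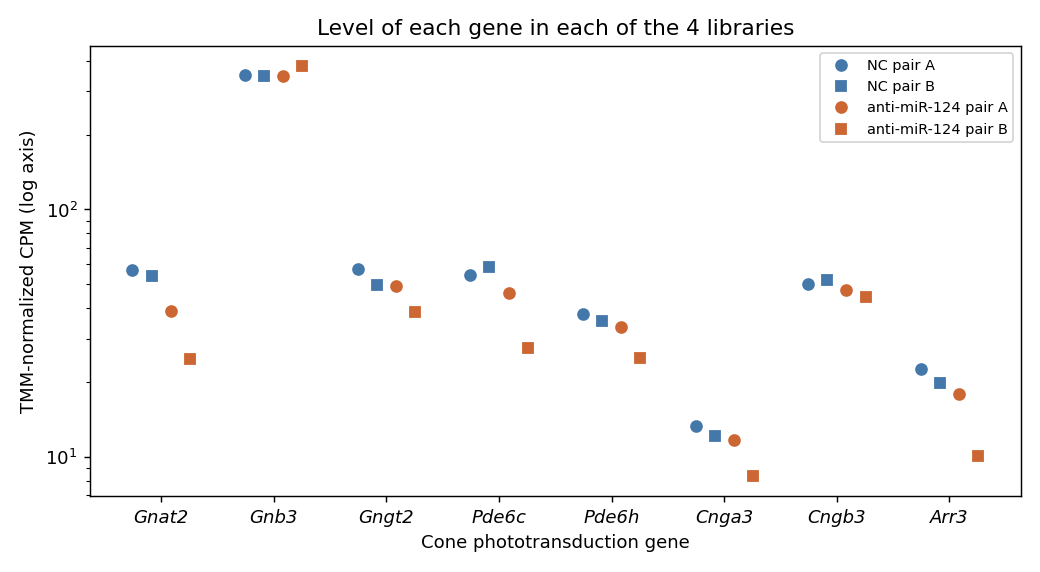
Each point is the level of 1 cone gene in 1 library, in TMM-normalized CPM on a log axis, with NC libraries in blue and anti-miR-124 libraries in orange (circles pair A, squares pair B). Anti-B is the lowest for 7 of the 8 genes, and Gnb3 alone has overlapping groups.

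The order of the genes by level was compared by TPM, which accounts for gene length. Gnb3 was the most abundant, from 576 to 680 TPM over the 4 libraries. Pde6h ranged from 128 to 181 TPM and Gngt2 from 95.6 to 131 TPM, and these ranges overlapped. Gnat2 followed with 42.8 to 93.1 TPM, then Pde6c with 30.8 to 65.6 TPM and Cngb3 with 31.3 to 36.4 TPM. The range of Pde6c overlapped those of both its neighbours. Arr3 ranged from 10.9 to 22.3 TPM and Cnga3 from 7.18 to 10.5 TPM, so that both channel subunits and the arrestin were at the lower end. The order was the same in 3 libraries, and in anti-B Pde6c lay below Cngb3.

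The positions given here are those of the deposited table. The submitters' processing notes name mm9, but 99.8% of 36837 gene symbols that could be matched to the RefSeq annotation of GRCm38.p6 overlapped it in position, all 8 cone genes among them, so the coordinates are taken as GRCm38. Each of the 8 is a protein-coding gene. Gnat2 shares 1208 bases of its span with Gm12500 on the same strand (13 to 22 counts per library), Gngt2 shares 258 bases with Abi3 on the opposite strand (102 to 124 counts), and Pde6c shares 1716 bases with Gm32440 on the opposite strand (at most 2 counts). Whether counting used the strand is not given in the sources used here.

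The transducin of cones is made of an α subunit (Gnat2), a β subunit (Gnb3) and a γ subunit (Gngt2). Gnat2, on chromosome 3 from 108086804 to 108101432, had 56.7 CPM in NC-A and 53.8 CPM in NC-B, against 38.9 CPM in anti-A and 24.8 CPM in anti-B. Both anti-miR-124 values were below both NC values, and the lowest was that of pair B. The means were 55.2 ± 2.06 CPM in NC and 31.8 ± 9.98 CPM in anti-miR-124 (SD, n = 2). The log2 fold change was -0.80 (standard error 0.19, 95% interval -1.26 to -0.33, unadjusted p = 0.0052, adjusted p = 0.989 from edgeR), which is 42.4% lower, and it was the lowest of the 8. Gngt2, on chromosome 11 from 95842219 to 95845734, had 57.4 and 49.6 CPM (NC-A, NC-B), against 49.1 and 38.4 CPM (anti-A, anti-B). Its groups were barely apart, since NC-B and anti-A had nearly the same level. The log2 fold change of Gngt2 was -0.29 (standard error 0.13, 95% interval -0.61 to 0.03).

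Gnb3, on chromosome 6 from 124834240 to 124840275, was the subunit whose groups overlapped. This β subunit is also made by ON bipolar cells, so that its counts in whole retina do not come from cones alone. It had 350.3 and 347 CPM (NC-A, NC-B), against 345 and 379 CPM (anti-A, anti-B), so that anti-A was the lowest and anti-B the highest. The log2 fold change was 0.05 (standard error 0.07, 95% interval -0.12 to 0.23). Its interval reaches no lower than -0.12, which is above the upper bound of Gnat2, while it overlaps the interval of Gngt2. The 12 bipolar markers had a median log2 CPM ratio of 0.21 in pair A, where 11 of them were higher, and of -0.33 in pair B, where 11 were lower. Their part in the level of Gnb3 was not tested.

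Among the cone genes with a matched promoter window, Gnat2 and Arr3 were those holding the letters marked below. Their promoters are shown to place the genes in sequence. They are the 250 bases before a RefSeq start on GRCm38.p6, plus strand, at chr3:108092816-108093065 for Gnat2 and chrX:100605247-100605496 for Arr3. Capitals mark each TAATC or its reverse complement GATTA, the core bound by homeodomain proteins such as Crx and Otx2, which are general transcription factors of photoreceptors. The RefSeq start of Gnat2 lies inside the span of the deposited gene.
Gnat2: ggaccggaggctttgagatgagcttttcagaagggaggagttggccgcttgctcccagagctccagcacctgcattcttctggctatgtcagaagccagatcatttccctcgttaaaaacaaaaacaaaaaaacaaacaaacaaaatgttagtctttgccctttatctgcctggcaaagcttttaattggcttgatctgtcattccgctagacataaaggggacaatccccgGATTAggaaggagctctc
Arr3: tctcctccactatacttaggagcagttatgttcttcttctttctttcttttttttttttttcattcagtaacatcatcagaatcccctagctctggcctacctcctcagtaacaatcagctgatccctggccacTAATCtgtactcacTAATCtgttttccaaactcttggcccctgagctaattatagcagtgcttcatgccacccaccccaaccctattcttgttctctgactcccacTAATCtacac
The core was found once in the Gnat2 window, within its 6-letter form TAATCC read on the other strand, and 3 times in the Arr3 window. Of 32851 RefSeq promoter windows of the same length, 19.8% held the core on either strand, 6.25% held TAATCC, which contains the core, and 0.554% held the core at least 3 times. A RefSeq window was matched for 4 of the 8 genes. Those of Cnga3 and Pde6h held no core, and these genes had lower CPM in both pairs too. The match describes these letters only.

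The phosphodiesterase of cones is built from the catalytic subunit Pde6c and the small inhibitory subunit Pde6h. Pde6c, on chromosome 19 from 38132781 to 38183955, had 54.1 and 58.5 CPM in NC-A and NC-B, against 45.8 CPM in anti-A and 27.6 CPM in anti-B. The groups did not overlap, and the anti-miR-124 libraries differed more from each other than anti-A did from either NC library. The log2 fold change was -0.62 (standard error 0.22, 95% interval -1.14 to -0.10, unadjusted p = 0.025 from edgeR), or 35.0% lower. Pde6h, on chromosome 6 from 136952218 to 136963485, had 37.9 and 35.6 CPM (NC-A, NC-B), against 33.3 and 25.2 CPM (anti-A, anti-B). Its direction was that of the catalytic subunit with a smaller size, at -0.33 (standard error 0.14, 95% interval -0.66 to -0.002, unadjusted p = 0.049 from edgeR), and the intervals of both subunits overlapped.

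The cGMP-gated channel is formed by the pore subunit Cnga3 and the modulatory subunit Cngb3. Cnga3, on chromosome 1 from 37218241 to 37263384, was the least abundant of the 8 genes and rested on 158 to 220 counts per library. It had 13.3 and 12.2 CPM (NC-A, NC-B), against 11.7 and 8.38 CPM (anti-A, anti-B). The log2 fold change of Cnga3 was -0.35 (standard error 0.19, 95% interval -0.81 to 0.11). Cngb3, on chromosome 4 from 19280850 to 19510623, had 49.9 and 51.6 CPM (NC-A, NC-B), against 47.3 and 44.5 CPM (anti-A, anti-B). By CPM, both channel genes were lower in both anti-miR-124 libraries, by little for Cngb3, at -0.15 (standard error 0.08, 95% interval -0.33 to 0.04).

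Arr3, the arrestin of cones, lies on chromosome X from 100605480 to 100618953. It had 22.7 and 19.9 CPM (NC-A, NC-B), against 17.9 and 10.1 CPM (anti-A, anti-B). The groups did not overlap, and the value of pair B was the lowest. The log2 fold change was -0.61 (standard error 0.25, 95% interval -1.21 to -0.01, unadjusted p = 0.047 from edgeR), or 34.5% lower.

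Within pairs, the sizes differed. In pair A, all 8 genes had a lower TMM-normalized CPM in anti-A than in NC-A, as had 51.8% of all genes tested, and their median log2 ratio was -0.21. The 95% counting interval (exact binomial, counting error only) lay below 0 for 5 of the 8 and for 13.7% of all genes tested. In pair B, 7 of the 8 genes were lower, against 49.4% of all genes tested, with a median of -0.52. For these 7 the counting interval lay below 0, as for 15.5% of all genes tested. Gnat2 had a log2 ratio of -0.54 (counting interval -0.69 to -0.40) in pair A and of -1.12 (-1.28 to -0.96) in pair B, which is 31.4% and 53.9% lower. Pde6c had -0.24 (-0.38 to -0.10) in pair A and -1.09 (-1.24 to -0.93) in pair B. Arr3 had -0.34 (-0.57 to -0.12) and -0.98 (-1.24 to -0.72). For these 3 genes the counting interval of pair B lay wholly below that of pair A, as for 9.5% of all genes tested, which compares the libraries themselves, and no test of the difference between pairs over replicates could be made. Gnb3 had -0.02 (-0.08 to 0.03) in pair A and 0.13 (0.08 to 0.18) in pair B.

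**Figure D2:**
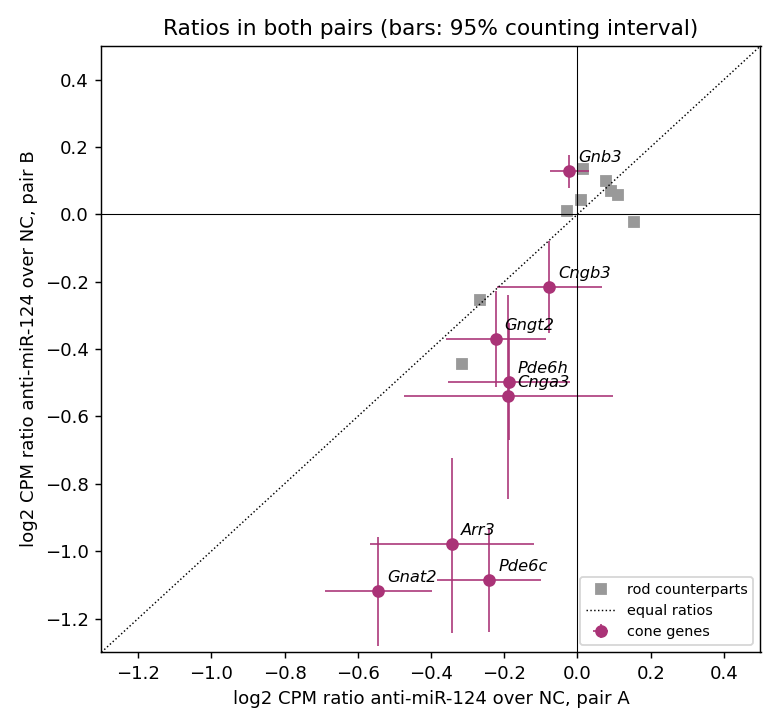
Each purple point is 1 cone gene, placed by the log2 ratio of TMM-normalized CPM (anti-miR-124 over NC) in pair A on the horizontal axis and in pair B on the vertical axis, with bars for the 95% counting interval, and grey squares are the 9 rod counterparts. All cone genes other than Gnb3 lie below the dotted line of equal ratios, Gnat2, Pde6c and Arr3 lowest, and only 2 grey squares lie beyond -0.2 in both pairs.

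Microglia genes were highest in the library in which most cone genes were lowest. In pair B, 15 of 15 microglia markers had the higher level in anti-B, with a median log2 CPM ratio of 1.73, and in pair A 6 of 15 were higher in anti-A, with a median of -0.05. None was at 0. The 12 Müller glia genes summed to 2452 CPM in anti-B, against 1970 to 2176 CPM in the others. Gene by gene, their median log2 CPM ratio was only 0.15 in pair B, where 9 were higher and 3 lower. In pair A it was -0.09, with 4 higher and 8 lower. The 22 lens genes had a summed level of 20440 CPM in NC-A and of 39.3 to 60.5 CPM in the others. The pigment epithelium genes had their lowest sum, 66.3 CPM, in NC-A too, against 85.8 to 119 CPM. The part of these transcripts in the cone results was not tested. Without anti-B, 8 of 8 cone genes lay below both NC libraries in anti-A (34.7% of all genes tested did), and the median log2 fold change was -0.13. The values were then -0.50 for Gnat2, -0.29 for Pde6c and -0.25 for Arr3. Without NC-A, 7 of the 8 were lower in anti-A and anti-B than in NC-B (30.7% of all genes tested), with a median of -0.28.

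By TPM, the scale of the study, 6 of the 8 genes were lower in both pairs, as were 14.3% of the 16128 genes with at least 1 TPM in every library. Gnb3 was higher in both, as were 32.9% of these genes. Cngb3 was slightly higher in pair A (32.8 TPM in anti-A, 32.1 TPM in NC-A) and lower in pair B. The TPM ratios of pair A were shifted upward, with a median over all genes of 0.10 on the log2 scale against -0.003 in pair B. With the lens genes left out of the sum, 7 cone genes were lower in both pairs and 0 were higher in both. Leaving them out lowers the pair A ratio of every gene, and the share of all genes was not computed on that scale.

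Rods offer a reference inside each library. The 9 rod counterparts (Gnat1, Gnb1, Gngt1, Pde6a, Pde6b, Pde6g, Cnga1, Cngb1 and Sag) had a median log2 fold change of 0.06. Both anti-miR-124 libraries lay below both NC libraries for 2 of the 9, a share near the 16.8% of all genes tested. These 2 were the transducin subunits Gnat1 at -0.38 (standard error 0.08, 95% interval -0.58 to -0.18) and Gngt1 at -0.26 (standard error 0.08, 95% interval -0.45 to -0.07). Neither passed an adjusted p of 0.05. The rod arrestin Sag had 0.09 (standard error 0.05) and the rod phosphodiesterase subunits Pde6a, Pde6b and Pde6g had 0.06, 0.08 and 0.03. The rod β subunit Gnb1, which is also made in many other cells, had 0.08 (95% interval 0.006 to 0.156). The rod channel subunits Cnga1 and Cngb1 had -0.01 and 0.08. For Gnb1, Pde6b, Pde6g and Cngb1, 4 of the 9, both anti-miR-124 libraries lay above both NC libraries, as for 2930 of 17766 genes tested. The summed CPM of the rod genes had a log2 ratio of 0.05 in both pairs, against -0.13 (pair A) and -0.17 (pair B) for the cone genes.

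**Figure D3:**
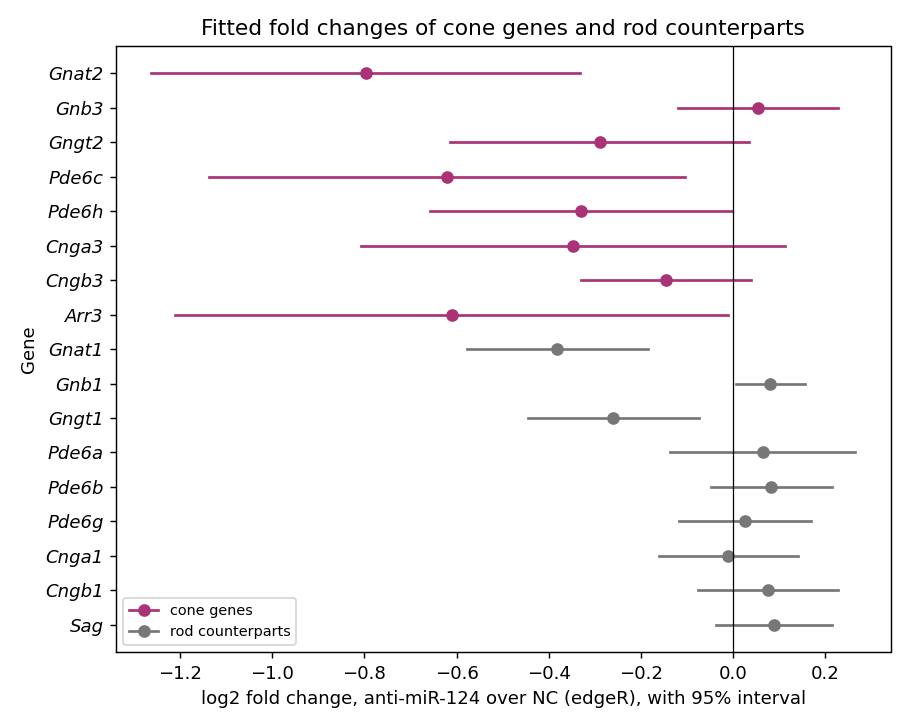
Points are the fitted log2 fold changes (anti-miR-124 over NC, edgeR, 2 libraries per group) of the 8 cone genes in purple and the 9 rod counterparts in grey, with lines for the 95% interval. The intervals of Gnat2, Pde6c, Pde6h and Arr3 lie below 0, as do those of the rod genes Gnat1 and Gngt1, and that of the rod gene Gnb1 lies above 0. The intervals are without adjustment for the number of genes tested.

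A ratio of cone to rod genes does not depend on how the libraries are scaled. The summed TPM of the cone genes was 16.9% and 15.8% of that of the rod genes in NC-A and NC-B, and 14.9% and 13.7% in anti-A and anti-B. The difference in the log2 ratio was -0.19, and the groups did not overlap (exact permutation test, two-sided, p = 0.333, the smallest that 2 against 2 libraries allow). Gnb3 and Gnb1 are the largest terms of these sums. Without them, the shares were 12.6% and 11.5% in NC-A and NC-B and 10.4% and 7.43% in anti-A and anti-B, a difference of -0.45 in the log2 ratio (exact permutation test, two-sided, p = 0.333). Gene by gene, the level of Pde6c relative to the rod catalytic subunit Pde6b was 6.02% and 6.06% in NC-A and NC-B and 4.72% and 2.74% in anti-A and anti-B. Arr3 relative to Sag was 2.39% and 1.97%, against 1.78% and 0.931%. The groups did not overlap in these 2 ratios, nor in those of Pde6h, Cnga3 and Cngb3 to Pde6g, Cnga1 and Cngb1. Gnat2 relative to Gnat1 was 48.9% and 41.7% in NC-A and NC-B, against 41.8% and 26.1% in anti-A and anti-B, so that the groups overlapped by the values of NC-B and anti-A. Gngt2 relative to Gngt1 was 39.6% and 37.1%, against 40.8% and 34.2%, and Gnb3 relative to Gnb1 was 24.2% and 23.2%, against 22.3% and 24.1%, with overlap in both. The overlap of Gnat2 was slight, and its mean log2 ratio still differed by -0.45, against -0.37, -0.35 and -0.22 for Pde6h, Cnga3 and Cngb3. The difference was -0.75 for both Pde6c (to Pde6b) and Arr3, -0.04 for Gngt2 and -0.03 for Gnb3. How many of all genes separate the groups in such a ratio was not computed.

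**Figure D4:**
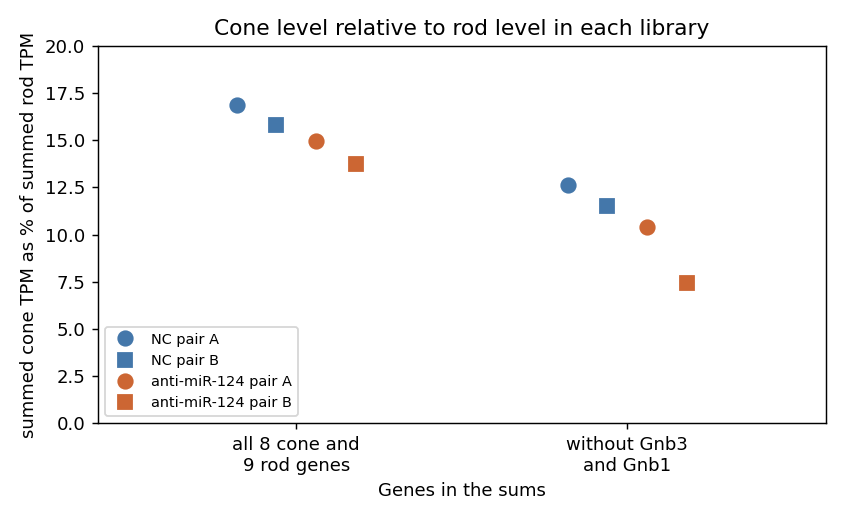
Each point is 1 library, blue for NC and orange for anti-miR-124 (circles pair A, squares pair B), and the vertical axis is the summed TPM of cone genes as a percentage of that of rod genes. Both anti-miR-124 libraries lie below both NC libraries, with all genes (13.7% and 14.9% against 15.8% and 16.9%) and without Gnb3 and Gnb1.

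Of 22 other genes of the phototransduction machinery of cones, many of them shared with rods, 4 had an unadjusted p-value under 0.05, all lower, and none had an adjusted p-value under 0.05. Of all genes tested, 1.68% were lower and 2.23% higher at that unadjusted p-value. The median log2 fold change of the 22 was -0.02. The cone opsins Opn1sw and Opn1mw had -0.82 (standard error 0.14) and -1.09 (standard error 0.35), the latter from 24 to 72 counts per library. Guca1a and Guca1b, activators of the guanylate cyclase that restores cGMP, had -0.85 (standard error 0.22) and -0.78 (standard error 0.19). These 4 genes were lower in both pairs, which their choice by p-value in the same libraries largely sets. The log2 CPM ratios in pair A and pair B were -0.53 and -1.14 for Opn1sw and -0.61 and -1.17 for Guca1a. Opn1mw had -0.51 (counting interval -1.22 to 0.18) and -1.65. Guca1b had -0.80 and -0.75, so that its ratio was not lower in pair B. The 4 most abundant genes of the list were Pdc, Unc119, Rcvrn and Rgs9, all used by rods too, with log2 fold changes of -0.05, 0.10, -0.13 and -0.001.

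The 15 transcription factors of cones and photoreceptors had a median log2 fold change of 0.02, and none was among those with an unadjusted p-value under 0.05 that were lower. The 2 with such a value were higher, as were 2.23% of all genes tested. They were Nrl, which drives rod fate, at 0.16 (standard error 0.04) and Nr2f1 at 0.25 (standard error 0.08). The 4 most abundant were Nr2e3, Crx, Nrl and Neurod1. Crx, which activates many photoreceptor genes, had -0.004 (standard error 0.04), Nr2e3, a rod factor that represses cone genes, had 0.10 (standard error 0.06), and Neurod1 had 0.03 (standard error 0.07). None of the 15 had both anti-miR-124 libraries below both NC libraries, against 16.8% of all genes tested. For 4 of the 15, both lay above, as for 2930 of 17766 genes tested.

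The genes whose pattern over the 4 libraries was most like the mean of the 8 cone genes were Lxn, Zufsp, Vwa1, Gm14305 and BC002059, with root mean square differences of 0.039 to 0.060 in centred log2 CPM among 10864 other genes with a mean of at least 10 TPM. With 4 libraries this measure of likeness is coarse, and Gm14305 and BC002059 belong to families of similar zinc finger genes between which reads may be split.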

How the data were processed

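RNA-Seq of whole retina was deposited as 1 table for 4 libraries. The authors deposited raw read counts per gene, without normalization, with gene lengths and positions. Per the labels, HISAT2 was used, and the counting tool and annotation were not given in the sources used here. The 4 columns of RPKM that the authors deposited beside the counts were not used. Columns were assigned to groups by the eye in their name. Depth is given as total counts, and counting intervals cover counting error only.

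Counts were tested with edgeR 4.0.16 in R 4.3.3 (quasi-likelihood, TMM, filterByExpr, no covariate, two-sided, Benjamini-Hochberg over 17766 genes, threshold 0.05), and the code was tested on simulated data. DESeq2 1.42.0 was an alternative, along with other normalizations, filters, a replicate block and leaving out each library. The 95% intervals use the degrees of freedom of the fit. TPM was computed from counts and lengths. Python 3.11.15 and scipy 1.17.1 were used for the other steps. No libraries were duplicates (chi-square per degree of freedom of at least 2.72).

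The cone genes and all gene lists were chosen with earlier results of these data known. Named genes were the 8 cone genes, the 9 rod counterparts, the genes of the other 2 lists with an unadjusted p-value under 0.05 or among their 4 most abundant, and the 5 genes most alike in pattern.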

Additional observations from a re-analysis of the deposited data

How the results depend on the processing

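The direction of the fitted log2 fold change of each of the 8 cone genes was kept under every alternative run, except that Gnb3 was at -0.010 without anti-B (0.12 without anti-A). The numbers in brackets are those of all genes, in either direction. At an unadjusted p-value under 0.05 from edgeR, 4 lower cone genes were found (694 of 17766). They became 2 with DESeq2's size factors (695 of 17766) or a mean of at least 10 counts (683 of 17602). There were also 2 with DESeq2's Wald test (354 of 31982). There were 4 with the upper quartile (673 of 17766) or total counts (685 of 17766). There were 5 without a filter (1577 of 31982) or with the replicate block (376 of 17766). At an adjusted p of 0.05, 0 cone genes passed with the settings of the report and also with other normalizations, a mean of at least 10 counts and the replicate block. There were 3 without a filter on low counts (Gnat2, Pde6c and Arr3), with 379 of 31982 genes. There was 1 with DESeq2's Wald test (Gnat2, adjusted p = 0.023), with 34 of 31982 genes. Why these settings differed was not tested. Leaving out each library in turn gave 0 to 4 cone genes and 0 to 256 of all genes, the 4 being Gnat2, Pde6c, Arr3 and Pde6h without anti-A, with 57 of all genes without NC-B and 12 without anti-B. These fits assume that a lone library varies like the other group. The median log2 fold change then ran from -0.58 to -0.13, the former without anti-A and the latter without anti-B.

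Both eyes of the mice were injected, but whether libraries with the same number hold fellow eyes is not stated, and their deviations from the group means correlated at -0.16 over genes, so the pairing was neither shown nor excluded. With this number as a replicate block, 0 cone genes and 0 of all genes passed, and the genes with p under 0.05 before adjustment numbered 376 with the block and 694 in the fit lacking it. With the numbers crossed, an alternative added after the data were seen, there were 2 cone genes and 160 of all genes. The count of cone genes higher in both pairs was 1 by TPM and 0 with TMM, with DESeq2's size factors and with the lens genes left out. The difference in the log2 cone to rod ratio was -0.19 from sums, -0.38 from means of log2 TPM and -0.45 without Gnb3 and Gnb1. The precision is limited by 2 libraries per group, and by counts for Cnga3 and Arr3.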
